A study of Mus musculus with 6 samples.

Results

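The early mevalonate pathway was followed through 8 liver transcripts, Acat2, Hmgcs1, Mvk, Pmvk, Mvd, Idi1, Fdps and Fdft1, which were taken by gene symbol from the 34866 identifiers of the deposited count table. All 8 were in the table and all 8 passed the filter on low counts, which left 13718 genes for testing. Livers came from 8-week-old male C57BL/6 mice given either a vehicle or iD1, a compound known here by its code name only, and mRNA was sequenced in 3 libraries of each group, prepared with a strand-specific kit. The labels name an intraperitoneal injection but no dose, time or target, and vehicle samples carry the word untreated under treatment. No genetic alteration is named for either group. Nothing in the labels ties the 3 libraries of a group to 3 separate animals. The p-values below therefore only set the difference between the groups against the scatter among these samples, which may be technical.

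Mevalonate synthesis starts from acetyl-CoA in the cytosol. A thiolase and a synthase build HMG-CoA, which is reduced to mevalonate, and a pair of kinases and a decarboxylase turn mevalonate into isopentenyl diphosphate, the building block of all isoprenoids. An isomerase and a synthase then make farnesyl diphosphate, and squalene synthase commits it to sterols, while other enzymes draw on the same intermediate for dolichol, the coenzyme Q side chain and the lipid anchors of proteins. The liver is a main site of cholesterol synthesis, and many genes of the pathway are known targets of the transcription factor SREBP2, whose activation is restrained by sterols. The reductase is not among the 8 transcripts and was not analysed here.

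The libraries held between 23515571 and 37613549 estimated counts. Summed hepatocyte markers (6 of 6 tested) lay between 71500 and 94100 CPM (counts scaled to sequencing depth) in vehicle and between 90200 and 98000 CPM in iD1 libraries, so the labelled tissue was borne out by its defining transcripts. The share of mitochondrially encoded transcripts was 12.2% ± 1.49 in vehicle and 9.44% ± 0.802 in iD1 (SD, n = 3 each). Summed Kupffer, sinusoidal endothelial, stellate, cholangiocyte, lymphocyte and red cell markers overlapped between the groups, and no listed marker of any type was at 0 in every library. Neutrophil markers summed to between 1.16 and 1.32 CPM in vehicle and to 3.49, 11.2 and 3.67 CPM in iD1 replicates 1, 2 and 3. Of the 4 tested, 3 were called higher, where 8.42% of all tested genes were higher and 8.30% lower. Elsewhere 1 of 6 hepatocyte markers was called higher and 1 of 5 stellate markers lower. Of 5 cholangiocyte markers 1 was called lower and 1 higher. No Kupffer, sinusoidal endothelial or red cell marker was called, and no lymphocyte marker was tested.

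Transcripts of the early pathway were lower in iD1 replicates 1 and 3 than in any vehicle library, for all 8 genes. In iD1 replicate 2, by the TMM scaling used for CPM here, most of them stood at or above the vehicle level. Only Mvd and Acat2 were below every vehicle library there too. With library size only, 3 of the 8 were below every vehicle library in replicate 2, 4 within their range and 1 above. With the quasi-likelihood test of edgeR, adjusted over all tested genes by Benjamini-Hochberg, 2 of the 8 were called lower with iD1 at an adjusted p under 0.05, namely Mvd and Acat2, and 0 were called higher. Of all tested genes, 8.30% were called lower and 8.42% higher. These 2 were also the members at an unadjusted p under 0.05, where 16.1% of all tested genes were lower. The fitted log2 fold change was below 0 for 8 of 8 members, with a median of -0.62, where the median of all tested genes was 0.00064 and 49.9% of them were below 0. In whole liver, fewer cells of a type and less RNA per cell cannot be told apart.

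**Figure D1:**
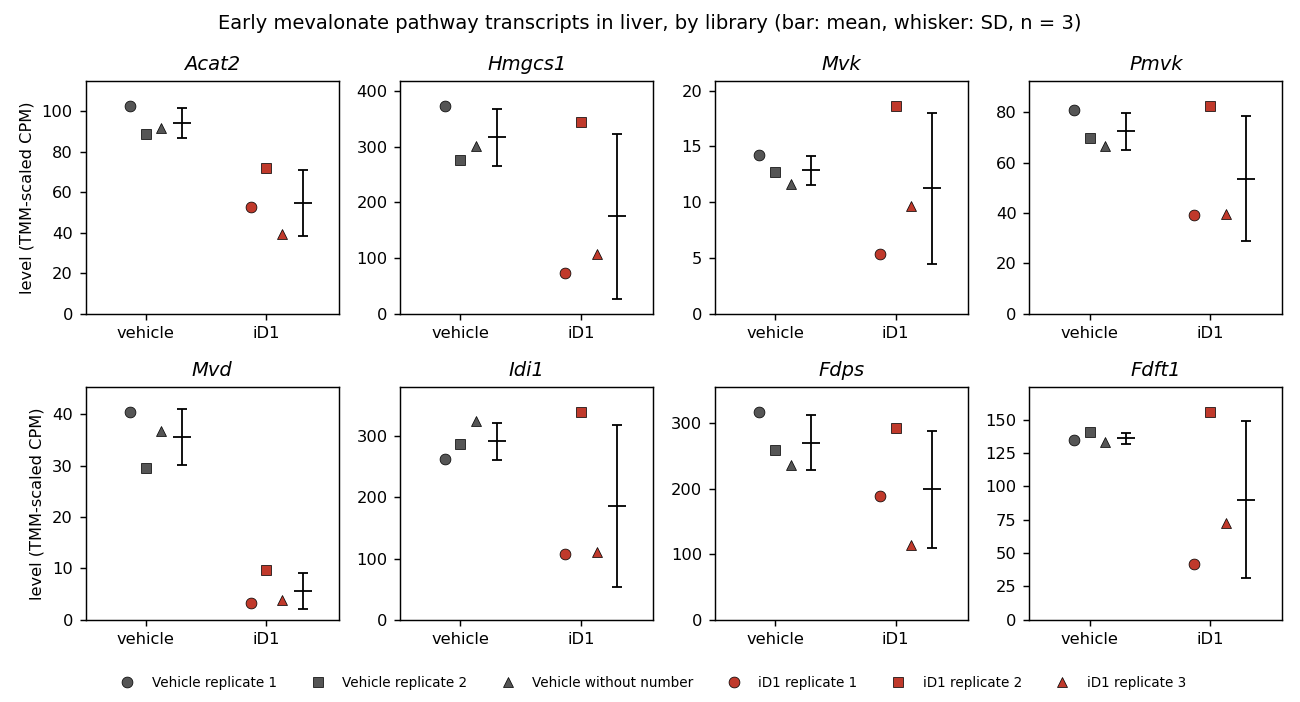
Level of each of the 8 transcripts in TMM-scaled CPM (linear axes from 0), 1 point per library, vehicle in grey and iD1 in red, with the mean as a short line and the SD as a whisker (n = 3). Circles and triangles of iD1 (replicates 1 and 3) lie below all grey points in every panel, whereas the iD1 square (replicate 2) lies below them only for Mvd and Acat2.

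The promoters of 4 members are shown because they hold the contrast in the data: Mvd and Acat2 were below vehicle in all iD1 libraries, whereas Hmgcs1 had the widest range between iD1 libraries and Mvk stood highest against vehicle in iD1 replicate 2. Each is the RefSeq window of 300 bases on GRCm38.p6, from 250 before to 50 after the start, read on the gene's strand. They are Mvd at chr8:122443373-122443672 (minus), Acat2 at chr17:12960676-12960975 (minus), Hmgcs1 at chr13:119690101-119690400 (plus) and Mvk at chr5:114444019-114444318 (plus). Capitals mark matches on either strand to the SREBP site form TCACNCCAC, the CCAAT box of NF-Y (CCAAT or its reverse complement ATTGG) and the GC box (GGGCGG or CCGCCC).
Mvd: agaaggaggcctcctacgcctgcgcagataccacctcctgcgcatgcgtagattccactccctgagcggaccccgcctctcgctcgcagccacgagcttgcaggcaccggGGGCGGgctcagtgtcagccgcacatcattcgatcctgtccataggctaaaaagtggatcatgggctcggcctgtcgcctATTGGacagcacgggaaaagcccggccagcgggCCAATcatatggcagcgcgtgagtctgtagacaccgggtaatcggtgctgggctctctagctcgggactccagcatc
Acat2: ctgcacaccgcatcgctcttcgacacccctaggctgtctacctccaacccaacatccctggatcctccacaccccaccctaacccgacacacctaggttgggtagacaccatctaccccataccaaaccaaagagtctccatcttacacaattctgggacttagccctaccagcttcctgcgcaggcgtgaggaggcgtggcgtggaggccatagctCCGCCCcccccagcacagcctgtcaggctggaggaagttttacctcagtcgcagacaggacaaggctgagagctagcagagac
Hmgcs1: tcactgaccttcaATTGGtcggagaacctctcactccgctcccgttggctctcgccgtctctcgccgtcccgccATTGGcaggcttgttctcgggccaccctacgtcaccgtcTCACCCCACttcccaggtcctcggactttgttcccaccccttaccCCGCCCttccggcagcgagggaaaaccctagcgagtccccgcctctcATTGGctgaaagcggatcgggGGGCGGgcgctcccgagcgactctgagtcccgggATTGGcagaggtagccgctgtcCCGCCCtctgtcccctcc
Mvk: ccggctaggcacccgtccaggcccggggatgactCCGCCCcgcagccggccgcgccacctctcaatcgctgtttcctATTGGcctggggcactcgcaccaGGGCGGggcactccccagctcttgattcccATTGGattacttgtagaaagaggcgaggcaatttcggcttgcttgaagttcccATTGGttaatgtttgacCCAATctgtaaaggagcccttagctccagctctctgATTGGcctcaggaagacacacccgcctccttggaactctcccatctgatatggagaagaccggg

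Of the 6 members with a window in the RefSeq table, 5 held a CCAAT box, which 37.4% of all 32851 windows of this length held, and 5 held a GC box, held by 35.7%. The SREBP form was found in Hmgcs1 only, once, and in 1.24% of all windows. No member's window held the palindrome TCACGTGA (0.974% of windows) or the E-box CACGTG it contains (7.15%). Mvk had the most CCAAT boxes with 5, Hmgcs1 had 4, Mvd and Idi1 had 2 each, and Pmvk had 1 in its upstream window. The Acat2 window held none and a single GC box. These are matches of letters in short windows and say nothing of binding.

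Acat2 encodes the cytosolic thiolase that joins acetyl-CoA units into acetoacetyl-CoA, the first step of the pathway. It measured 103, 88.5 and 91.7 CPM in vehicle replicate 1, vehicle replicate 2 and the vehicle library without a number. In iD1 replicates 1, 2 and 3 it measured 52.8, 71.8 and 39.3 CPM. The groups did not overlap, which held for 2 of the 8 members and 18.7% of all tested genes with iD1 below vehicle, and for 0 members and 18.5% of genes with iD1 above. Acat2 fell from 94.3 ± 7.39 to 54.6 ± 16.3 CPM (SD, n = 3), a log2 fold change of -0.79 (SE 0.20, adjusted p = 0.0283 in edgeR's test). The call was lost without vehicle replicate 1 (0.0876), vehicle replicate 2 (0.0657), the unnumbered vehicle library (0.0831), iD1 replicate 1 (0.0673) or iD1 replicate 3 (0.0623), all adjusted p of the same edgeR test.

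Acat2 has a near-identical neighbour, Acat3, on the same strand of chromosome 17, and their coding sequences share 1164 of 1191 bases (97.7%). The deposited value of Acat2 was not a whole number in 6 of 6 libraries, as when reads that fit both copies are divided between them, and the values of either gene alone are uncertain. Acat3 measured 181, 172 and 156 CPM in the vehicle libraries and 121, 118 and 127 CPM in iD1 replicates 1, 2 and 3, again without overlap, and its log2 fold change was -0.47 (SE 0.12, adjusted p = 0.0245 by edgeR). Its call was lost without vehicle replicate 1, vehicle replicate 2, iD1 replicate 2 or iD1 replicate 3 (adjusted p up to 0.0723). With the counts of both copies summed, levels were 284, 260 and 248 CPM in vehicle and 174, 190 and 167 CPM in iD1, a log2 fold change of -0.58 (SE 0.13, adjusted p = 0.0147 by edgeR). The 3 iD1 values of Acat3 lay close together where those of Acat2 did not, and the difference in spread was not tested.

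Hmgcs1 encodes the cytosolic HMG-CoA synthase. Its levels were 373, 275 and 301 CPM in the vehicle libraries. They were 72.3 and 107 CPM in iD1 replicates 1 and 3 but 345 CPM in iD1 replicate 2, which lay inside the vehicle range. The means were 317 ± 50.7 and 175 ± 148 CPM (SD, n = 3), and the log2 fold change of -0.86 (SE 0.62) was not called (adjusted p = 0.411 by edgeR). Between its highest and lowest iD1 library Hmgcs1 differed 4.77-fold, against 1.36-fold within vehicle, the widest iD1 range among the 8 transcripts.

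The phosphorylation of mevalonate is carried out by the products of Mvk and Pmvk. Mvk, mevalonate kinase, was the least abundant member in vehicle, with 14.2, 12.7 and 11.6 CPM there and 5.36, 18.6 and 9.70 CPM in iD1 replicates 1, 2 and 3. Its log2 fold change was -0.19 (SE 0.42, adjusted p = 0.807 by edgeR), and iD1 replicate 2 was the highest of all 6 libraries. Pmvk, phosphomevalonate kinase, showed the same order with less spread. It measured 80.7, 69.7 and 66.7 CPM in vehicle and 39.1, 82.4 and 39.4 CPM in iD1, a log2 fold change of -0.43 (SE 0.30, adjusted p = 0.378 by edgeR). All 6 Pmvk values were whole numbers of reads, and no near copy of the gene was found.

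Mvd, the diphosphomevalonate decarboxylase that yields isopentenyl diphosphate, fell most of the 8. It was covered by 1216, 1229 and 1198 counts in the vehicle libraries and by 82, 299 and 82 counts in iD1 replicates 1, 2 and 3, all whole numbers. On the CPM scale these were 40.4, 29.6 and 36.7 against 3.31, 9.68 and 3.81. The groups lay far apart, and iD1 replicate 2 was the highest of its group here too. The mean went from 35.6 ± 5.50 to 5.60 ± 3.54 CPM (SD, n = 3), a 6.26-fold fall with a log2 fold change of -2.65 (SE 0.43, adjusted p = 0.0117 by edgeR). Mvd was called without each of the 6 libraries in turn, with adjusted p between 1.33e-04 and 0.0452. It missed the threshold when no filter on low counts was used (adjusted p = 0.0534 by edgeR). Even in iD1 replicate 2, Mvd stood at 27.2% of its vehicle mean, while Mvk stood at 145% there.

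Idi1 encodes the isomerase that interconverts isopentenyl and dimethylallyl diphosphate. It was 263, 288 and 324 CPM in vehicle and 107, 339 and 111 CPM in iD1 replicates 1, 2 and 3. Replicates 1 and 3 lay close together at 36.7% and 38.1% of the vehicle mean, and replicate 2 was above every vehicle library at 116%. The log2 fold change was -0.65 (SE 0.48, adjusted p = 0.415 by edgeR). A processed pseudogene on chromosome 2, Gm13502, matches the Idi1 transcript at 100% over 684 bases, and reads of the 2 cannot be told apart there. Gm13502 had between 616 and 1163 estimated counts in vehicle libraries and 112, 339 and 127 in iD1, and was called lower (log2 fold change -1.80, SE 0.32, adjusted p = 0.0124 by edgeR). Summing Gm13502 and the other near copies into Idi1, an alternative chosen after seeing the data, gave a log2 fold change of -0.72 (SE 0.47, adjusted p = 0.357 by edgeR). The paralogue Idi2 had 0 to 4 counts per library and was not tested.

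Fdps, farnesyl diphosphate synthase, makes the branch-point intermediate. It had 317, 259 and 236 CPM in vehicle and 189, 293 and 115 CPM in iD1, with a log2 fold change of -0.44 (SE 0.31, adjusted p = 0.385 by edgeR). Here iD1 replicate 3 was the lowest, at 42.5% of the vehicle mean, and replicate 1 stood at 69.9%. Fdps shares 1124 exon bases on the same strand with Gm43738, which had no more than 30.0 estimated counts in any library, and its pseudogenes had fewer. With these summed in, the log2 fold change of Fdps was -0.44 (SE 0.31), also not called.

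Fdft1, squalene synthase, is the first enzyme committed to sterols. Its vehicle values of 134, 141 and 133 CPM were the tightest of the 8, with a coefficient of variation of 2.99%. In iD1 replicates 1, 2 and 3 it had 41.5, 156 and 72.6 CPM, the middle value above every vehicle library. The log2 fold change was -0.59 (SE 0.47, adjusted p = 0.447 by edgeR). Exons of Fdft1 share 774 bases with Ctsb on the other strand, and no source used here says whether strand was used in counting. Ctsb lay between 253 and 328 CPM in all 6 libraries and had a log2 fold change of -0.11, so it did not follow the order of Fdft1.

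**Figure D2:**
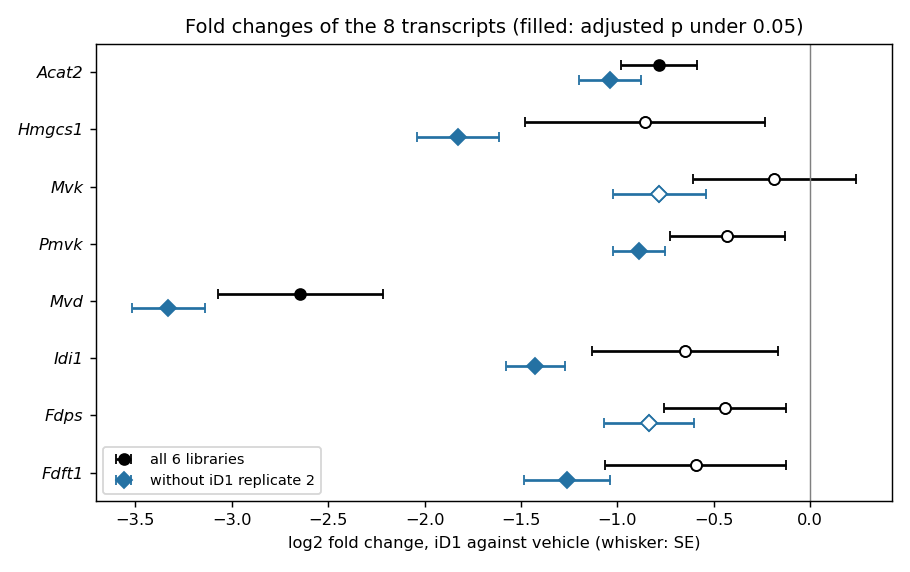
Log2 fold change of each transcript, iD1 against vehicle, with its standard error as a whisker, from all 6 libraries (black circles) and without iD1 replicate 2 (blue diamonds), with filled symbols for an adjusted p under 0.05. With all libraries Acat2 and Mvd are filled, and without iD1 replicate 2 every symbol but those of Mvk and Fdps is filled.

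The number of members called changed with every library left out, and rose only without iD1 replicate 2. Without this library, singled out after its values were seen, 6 of the 8 members were called lower, where 5.14% of all tested genes were, and 0 were called higher, where 5.71% were. The members' median log2 fold change was then -1.15 against -0.01 for all genes, and 8 of 8 were below 0, as were 51.5% of genes. That fit left 2 iD1 libraries. Hmgcs1 then had a log2 fold change of -1.83 (SE 0.21, adjusted p = 0.00187), Idi1 of -1.43 (SE 0.15, 0.00144) and Fdft1 of -1.26 (SE 0.22, 0.0113), all by edgeR. Pmvk was called as well at -0.89 (SE 0.13), whereas Mvk at -0.78 (adjusted p = 0.0758) and Fdps at -0.84 (0.0553) were not. Leaving out any other library left 1 member called lower, Mvd. The share of all genes called lower was then 4.94% without vehicle replicate 1, 4.32% without vehicle replicate 2, 4.47% without the unnumbered vehicle library, 9.67% without iD1 replicate 1 and 4.06% without iD1 replicate 3.

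iD1 replicate 2 was the highest iD1 library for 8 of 8 members, which held for 32.9% of all tested genes. Replicate 1 was below every vehicle library in 8 of 8 members and 32.6% of genes, and replicate 3 in 8 of 8 and 35.5%. Replicates 1 and 3 were below every vehicle library while replicate 2 was not in 6 of 8 members, and in 4.18% of all tested genes. These placings were chosen after the members' values were seen, so the counts describe the members and are no test. Summed over the 8 transcripts, vehicle libraries held 1326, 1163 and 1201 CPM. The iD1 sums were 510 and 498 CPM in replicates 1 and 3. In replicate 2 the sum was 1315 CPM, inside the vehicle range by TMM scaling, although Mvd and Acat2 were each below every vehicle library there. That placing depended on scaling. The TMM factor was 0.878 in iD1 replicate 2 and 1.01 to 1.11 in vehicle libraries. With library size only, without these factors, the sum in replicate 2 lay below that of every vehicle library. Sums by RLE and upper-quartile scaling were not compared. The median ratio of the highest to the lowest iD1 library was 3.05 for the members and 1.32 for all tested genes. Within vehicle it was 1.23 for the members and 1.27 for all genes.

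The placing of replicate 2 against vehicle depended in part on scaling. By TMM it was below all vehicle libraries for 2 members, within their range for 2 and above it for 4, where 36.8%, 27.6% and 35.5% of all genes were. With library size only these numbers were 3, 4 and 1, where 58.8% of all genes were below and 26.2% within the range, so that scaling moved genes at large downward in this library. By it, Hmgcs1 in replicate 2 stood at 0.997 times the lowest vehicle value. Replicates 1 and 3 were below every vehicle library in 8 of 8 members, and replicate 2 the highest iD1 library in 8 of 8, by TMM, RLE, upper-quartile and library-size scaling alike. Over these scalings 32.2% to 41.2% of all genes had replicate 1, and 35.5% to 53.1% had replicate 3, below every vehicle library, and 19.9% to 34.0% had replicate 2 highest. Among iD1 libraries replicate 2 also had the largest total (35207596 estimated counts), the smallest TMM factor (0.878), the highest neutrophil marker sum (11.2 CPM) and the highest cholangiocyte marker sum (45.5 CPM against 28.0 and 28.5). Their part in the result was not tested.

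Deviations from the group means moved together across the 8 transcripts, with iD1 replicate 2 the highest iD1 library for all 8. That library enters every correlation, and pairs of other genes were not examined. Over the 28 pairs the Pearson correlation of log2 CPM after removing group means ran from 0.51 to 0.99 with a median of 0.89, over 6 libraries that share their depth and scaling. Hmgcs1 followed the others most closely (median 0.96) and Fdps least (median 0.74). Among 11104 other genes, those most like the mean profile of the members over the 6 libraries were Rps2-ps6 (Pearson r 0.99), Pitpnb (0.98), Ifi47 (0.98), Arid3b (0.98) and Wdr13 (0.98). Their log2 fold changes lay between -0.73 for Ifi47 and -0.11 for Pitpnb, and none was called. These r values are the highest of 11104 over only 6 libraries, so close matches may arise from the number searched. The correlation also takes no account of size. Over the iD1 libraries Pitpnb ran only from 46.5 to 53.3 CPM, whereas Ifi47 ran from 4.39 to 13.7 CPM.

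Per kilobase of the principal transcript, vehicle levels were ordered as Fdps, Idi1, Hmgcs1, Pmvk, Acat2, Fdft1, Mvd and Mvk. Fdps stood highest at 196 ± 30.3 CPM per kilobase (SD, n = 3), and Idi1 at 96.3 ± 10.1 and Hmgcs1 at 91.4 ± 14.6 did not differ beyond their spread. Pmvk at 60.6 ± 6.17 was above Acat2 at 41.9 ± 3.28 and Fdft1 at 36.8 ± 1.10. Mvd at 20.3 ± 3.13 stood above Mvk at 7.75 ± 0.786. In iD1 livers Mvd, at 3.19 ± 2.02 CPM per kilobase, was the lowest of the 8, below Mvk at 6.77 ± 4.08 within their spreads.

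Late sterol enzymes, which carry squalene to cholesterol, split in the same libraries. Of 11 tested, 3 were called lower and 0 higher, with a median log2 fold change of -0.11, where 8.30% and 8.42% of all tested genes were. Without iD1 replicate 2 the count was 5 (5.14% of all genes). It was 1 when iD1 replicate 1 (9.67%) or a single vehicle library (4.32% to 4.94%) was left out. Sc5d, a desaturase near the end of the pathway, measured 271, 280 and 247 CPM in iD1 replicates 1, 2 and 3 against 595 to 702 CPM in vehicle. Replicate 2 thus did not stand apart for Sc5d, whose call held without each of the 6 libraries. Lss, which closes squalene epoxide into lanosterol, fell to 36.3, 64.2 and 30.2 CPM from 88.3 to 102 CPM, and lost its call without iD1 replicate 1 or any 1 vehicle library. Dhcr7, the last reductase, had a log2 fold change of -0.54 (SE 0.16, adjusted p = 0.0488 by edgeR) and kept its call only without iD1 replicate 2. In 10 of the 11 genes replicate 2 was the highest iD1 library, as in 32.9% of all genes. Replicates 1 and 3, but not 2, were below every vehicle library for 6 of the 11, as for 4.18% of all genes. That pattern had been set after the early members' values were seen. For Hsd17b7 and Msmo1 it rested on near ties. There iD1 replicate 3 stood at 59.343 and 202.5 CPM, against 59.375 and 204.04 CPM in the lowest vehicle library. An example with a wider gap is Sqle, squalene epoxidase, chosen after its values were seen. It had 37.2, 136 and 37.4 CPM in iD1 against 85.2 to 122 CPM in vehicle.

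**Figure D3:**
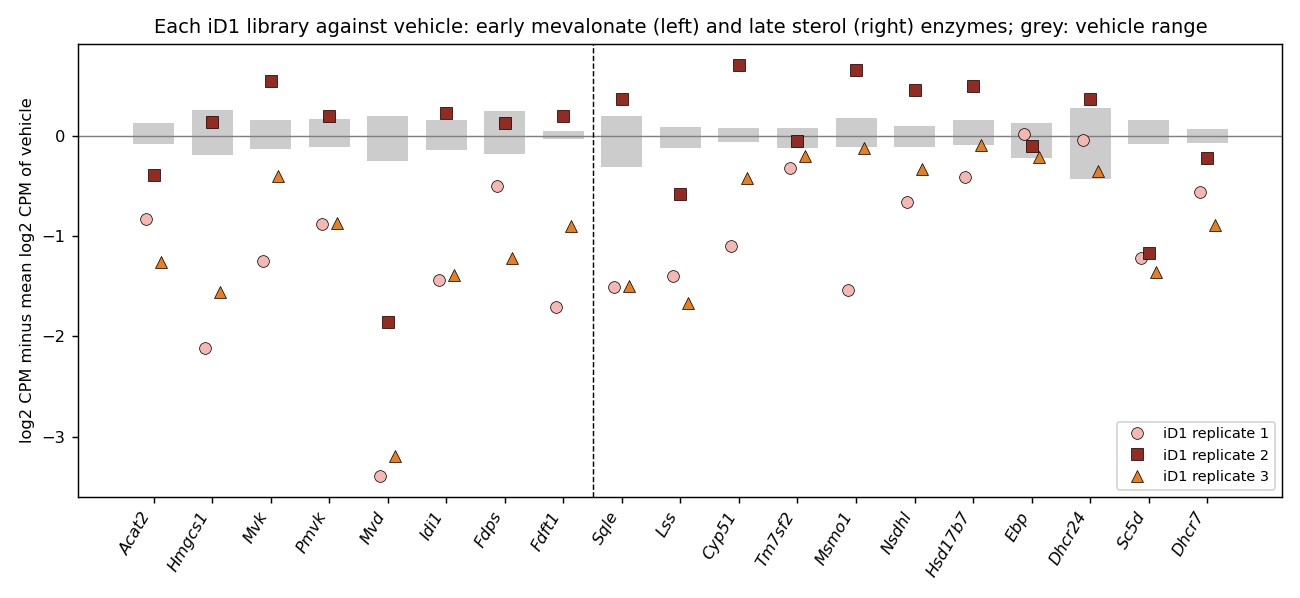
Log2 CPM of each iD1 library minus the mean log2 CPM of vehicle for the 8 early transcripts (left of the dashed line) and 11 late sterol enzymes (right), with the range of the 3 vehicle libraries as a grey box. Dark squares (iD1 replicate 2) lie above the other iD1 libraries for all 8 early and 10 of 11 late genes, and only Mvd, Acat2, Lss, Sc5d and Dhcr7 have every iD1 point below the grey box.

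Regulators of the pathway did not all share that order. Of 11 tested genes for SREBP control and other sterol-responsive genes, 4 were called lower and 1 higher, with a median log2 fold change of -0.01. Over all tested genes the shares were 8.30% and 8.42%, so the single higher call is about the share of all genes. Srebf1, the SREBP gene linked mainly to fatty acid synthesis, fell to 69.6, 42.9 and 57.0 CPM in iD1 replicates 1, 2 and 3 from 203 to 283 CPM, with replicate 2 the lowest. Srebf2, which encodes SREBP2 and was added after its values were seen, changed by 0.05 on the log2 scale (SE 0.17) and was not called. Insig2, a sterol sensor that retains SREBP in the endoplasmic reticulum, rose to 422, 239 and 388 CPM from 87.5 to 114 CPM, least in replicate 2. Its relative Insig1 fell to 154, 243 and 244 CPM from 462 to 805 CPM. Stard4, a cholesterol transfer protein, fell to 38.0, 68.5 and 45.2 CPM from 108 to 123 CPM. Mmab was the other gene called lower. The calls of Srebf1, Insig2, Insig1 and Stard4 held without each of the 6 libraries.

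Mmab, a cobalamin enzyme gene, starts 208 bases from Mvk and runs the other way, and their promoter windows share 259 bases, so the CCAAT boxes printed for Mvk lie in both. Mmab measured 25.5, 26.4 and 19.4 CPM in vehicle and 10.4, 18.2 and 11.7 CPM in iD1 replicates 1, 2 and 3. Its log2 fold change was -0.81 (SE 0.22, adjusted p = 0.0357 by edgeR), a call lost without vehicle replicate 1, vehicle replicate 2, iD1 replicate 1 or iD1 replicate 3. Both genes were highest in iD1 replicate 2 among iD1 libraries, but there Mmab was below every vehicle library and Mvk above every one. The difference between Mmab and Mvk was not tested.

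Acat1, the mitochondrial thiolase, carries out the same reaction as the Acat2 product in another compartment, and their coding sequences match at 50% of aligned positions. It measured 326, 288 and 330 CPM in vehicle and 320, 386 and 374 CPM in iD1 replicates 1, 2 and 3, with overlap between the groups. Its log2 fold change was 0.20 (SE 0.14, adjusted p = 0.376 by edgeR), so it was not called where Acat2 was called lower. The difference between Acat1 and Acat2 was not tested.

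**Figure D4:**
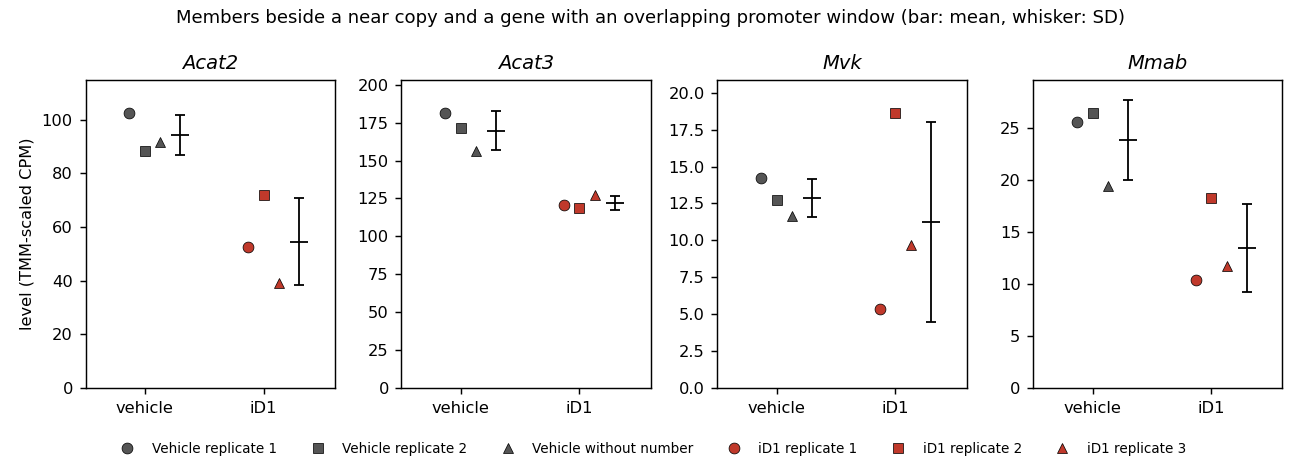
Level in TMM-scaled CPM (linear axes from 0) of Acat2 beside its near copy Acat3 and of Mvk beside Mmab, 1 point per library with mean and SD (n = 3). The 3 iD1 points of Acat3 lie together, whereas iD1 replicate 2 (red square) stands above the other iD1 points for Acat2, Mvk and Mmab.

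Of 4 tested genes that supply cytosolic acetyl-CoA, 1 was called lower, where 8.30% of all tested genes were, with a list median of -0.60: Acss2, which activates acetate, went from 257 ± 25.6 to 128 ± 15.9 CPM and kept its call without each of the 6 libraries. Enzymes that attach farnesyl and geranylgeranyl groups to proteins or prepare them numbered 10, of which 2 were called higher and 0 lower (median log2 fold change 0.12), where 8.42% of all tested genes were higher. They were Rabggtb, a subunit of the Rab geranylgeranyl transferase, at 0.67 (SE 0.14), and Ggps1, which extends farnesyl to geranylgeranyl diphosphate, at 0.43 (SE 0.13). Rabggtb lost its call without vehicle replicate 2 or iD1 replicate 3, and Ggps1 kept it only without iD1 replicate 1. Of 11 genes for dolichol and the coenzyme Q side chain, 1 was called higher, about the share of all tested genes (8.42%), and 0 lower (median log2 fold change 0.10). This was Coq7, a coenzyme Q hydroxylase, at 0.49 (SE 0.11), not called without vehicle replicate 2 or the unnumbered vehicle library. With library size only, neither Ggps1 nor Coq7 was called (adjusted p = 0.246 and 0.175 by edgeR). By that scaling the median over all genes was -0.20. Tcp1, which overlaps Acat3 on the other strand, was not called (log2 fold change -0.09, SE 0.11).

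By position in GENCODE M21 on GRCm38, all 8 are protein-coding genes. Acat2 (ENSMUSG00000023832) lies on chromosome 17 from 12942890 to 12960747 and Hmgcs1 (ENSMUSG00000093930) on chromosome 13 from 119690379 to 119708260. Mvk (ENSMUSG00000041939) lies on chromosome 5 from 114444269 to 114460591 and Pmvk (ENSMUSG00000027952) on chromosome 3 from 89454541 to 89469013. Mvd (ENSMUSG00000006517) lies on chromosome 8 from 122433601 to 122443422 and Idi1 (ENSMUSG00000058258) on chromosome 13 from 8885501 to 8892451. Fdps (ENSMUSG00000059743) lies on chromosome 3 from 89093588 to 89101959 and Fdft1 (ENSMUSG00000021273) on chromosome 14 from 63145150 to 63179578.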

How the data were processed

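For 3 vehicle and 3 iD1 liver libraries, the authors deposited estimated counts by gene with no depth scaling. The sources used here name no aligner, quantifier or build. A vehicle column whose number matches no title entered as an unnumbered replicate. The deposited estimated counts were rounded and fitted over the whole table with edgeR 4.0.16 in R 4.3.3 (filterByExpr with minimum count 10 and minimum total 15, TMM, robust quasi-likelihood F test, two-sided, Benjamini-Hochberg, threshold 0.05). The SE was |log2 fold change|/√F. CPM used TMM-scaled sizes, and log2 CPM a prior count of 2. No 2 libraries of a group agreed within sampling noise. Between 22.5% and 27.7% of a library's values were not whole. Lengths and positions came from GENCODE M21, which held 93.4% of the versioned identifiers, and promoters from RefSeq. Near copies were transcripts at least 90% identical to a member's principal transcript over at least 200 bases.

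Members and lists were chosen with earlier results of these data known. Named were all members, up to 4 called genes of each list by smallest p, fixed copies, neighbours and relatives (Acat3, Idi2, Mmab, Tcp1, Acat1), and the 5 most alike genes with a mean of at least 1 CPM. Alternatives were other scalings, DESeq2 1.42.0, limma-voom (limma 3.58.1), other filters, a threshold of 0.01, a replicate block, mitochondrial genes left out, summed copies and leaving out each library. The list of ketone body and thiolase relatives is not reported here, except Acat1.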

Additional observations from a re-analysis of the deposited data

How the results depend on the processing

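The 8 members kept a log2 fold change below 0 under every alternative run, except Mvk without iD1 replicate 1. The count of members called lower was 2 in the reported fit, ranged from 1 to 6 with 1 library left out, was 1 without a filter on low counts (5.51% of all genes lower), 0 at a threshold of 0.01 (2.68%), and 2 with RLE (8.21%) or upper-quartile factors (10.5%), library size only (13.7%), DESeq2 (9.02%) and limma-voom (8.21%). At a threshold of 0.01 neither Acat2 (log2 fold change -0.79) nor Mvd (-2.65) was called, and Mvd (-2.65) was not called without the filter. With 1 library left out, log2 fold changes ranged from -1.04 to -0.59 for Acat2, from -1.83 to -0.48 for Hmgcs1, from -0.78 to 0.15 for Mvk, from -0.89 to -0.24 for Pmvk, from -3.33 to -2.37 for Mvd, from -1.43 to -0.37 for Idi1, from -0.84 to -0.16 for Fdps and from -1.26 to -0.25 for Fdft1.

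With 1 library left out, the counts called lower ranged from 1 to 2 for acetyl-CoA supply, from 1 to 5 for late sterol enzymes, from 0 to 1 for farnesyl and geranylgeranyl use, and from 0 to 2 for near copies and neighbours. The counts called higher ranged from 0 to 2 for farnesyl and geranylgeranyl use and from 0 to 1 for dolichol and coenzyme Q. With library size only, farnesyl and geranylgeranyl use had 1 lower and 1 higher, and dolichol and coenzyme Q had 0 higher.

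A replicate block could be fitted only on the 4 libraries whose numbers occur in both groups. The deviations of the same-numbered libraries correlated at 0.17 and -0.13. These 2 values cannot show whether libraries of the same number belong together, and the reported fit used no block. In that blocked edgeR fit 0 members were called, 2 had an unadjusted p under 0.05, and 2.58% of all genes were called lower, with Acat2 at -0.63 and Mvd at -2.55. The same 4 libraries without the block, an alternative added after the data were seen, also gave 0 in edgeR (2 at an unadjusted p under 0.05, 1.72% of all genes lower), with Acat2 at -0.61 and Mvd at -2.41. With so few genes called at all, 0 of 8 is near the share of all genes in both fits.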
